A study of Brassica napus with 6 samples.

Results

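In microspore cultures of Brassica napus (oilseed rape), 143 of 101040 gene identifiers were transcribed in all 3 pollen-culture libraries on day 2 and were absent or nearly absent after heat stress combined with trichostatin A (TSA). They were selected on these same libraries: each had at most 3 reads in the sum of the 3 treated libraries, and at least 1 CPM (the count divided by the library's total, times 1000000) in each pollen-culture library. The difference between the groups is therefore how they were found and not a finding about them. Of the 37117 identifiers that met the pollen-culture requirement, the 143 members were 0.385%.

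Both groups were cultures started from late unicellular microspores of genotype DH12075, with 3 biological replicates each. The treated cultures spent 24 h at 33 °C with 0.05 µM TSA, and the pollen cultures spent 24 h at 25 °C, with the solvent DMSO according to the protocol and untreated according to the treatment label. The medium was then replaced in both, and all cultures stood at 25 °C until collection on day 2. The labels describe the pollen cultures as microspores and pollen, and the treated cultures as microspores, pollen and embryogenic cells, so each library is a mixture. In such mixtures fewer cells of a type and less RNA per cell cannot be told apart. Temperature and TSA changed together, and their parts cannot be told apart either.

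A microspore is the haploid cell released after meiosis in the anther. In its usual development it enlarges, divides asymmetrically into a large vegetative and a small generative cell, and matures into pollen. Cultured microspores of Brassica napus can instead divide into a haploid embryo, and a period of heat is the classical way to bring this about. TSA inhibits histone deacetylases, the enzymes that remove acetyl groups from histones and so generally lower the accessibility of chromatin for transcription. 

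The deposited table gives identifiers without gene names, and 0 of the 101040 matched an entry of the RefSeq gene table used here. The function, position and sequence of the members are therefore not reported, and the labelled cell types were not checked against marker genes. The A and C subgenomes of Brassica napus are closely related, and the count of any single identifier may include or lack reads of a near-identical copy. Library totals were 14714537, 24527873 and 19841078 counts for pollen-culture replicates 1 to 3, and 11758677, 24773444 and 22920440 for heat stress plus TSA replicates 1 to 3. Pollen-culture replicate 1 stood apart from its partners. Across the 37117 identifiers, Spearman's rho of CPM was 0.979 between replicates 2 and 3 but 0.886 and 0.861 between replicate 1 and these, as a description of libraries across identifiers that are not independent. The treated libraries were not uniform either. Their chi-square per degree of freedom, which grows with difference and with depth, was 28.7 between replicates 2 and 3. Between treated replicate 1 and these it was 63.2 and 77.1. Treated replicate 3 stood at 61.2, 37.5 and 37.8 against pollen-culture replicates 1 to 3.

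The members were transcripts of low to moderate level in pollen culture. Their mean over the 3 pollen-culture libraries had a median of 3.09 CPM (quartiles 2.03 and 5.29) and ran from 1.17 to 23.9 CPM. The median over all 37117 identifiers was 9.99 CPM (quartiles 4.42 and 23.1). Of the members, 36 had a mean under 2 CPM, 68 lay from 2 to under 5, 29 from 5 to under 10 and 10 at 10 CPM or more. Members made up 1.63% of the identifiers in the lowest of these classes, 0.814% and 0.362% in the next, and 0.0539% (10 of 18546) in the highest. The limit of 3 treated reads is the same at every level, so a higher identifier must differ by a larger fold to be picked. The low level of the members and the falling share are therefore partly set by the rule. The highest member was exceeded by 8962 identifiers, 24.1% of the 37117. In all, the members took 0.0802%, 0.0602% and 0.0544% of the reads of pollen-culture replicates 1 to 3 (mean 0.0649% ± 0.0135, SD, n = 3).

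**Figure D1:**
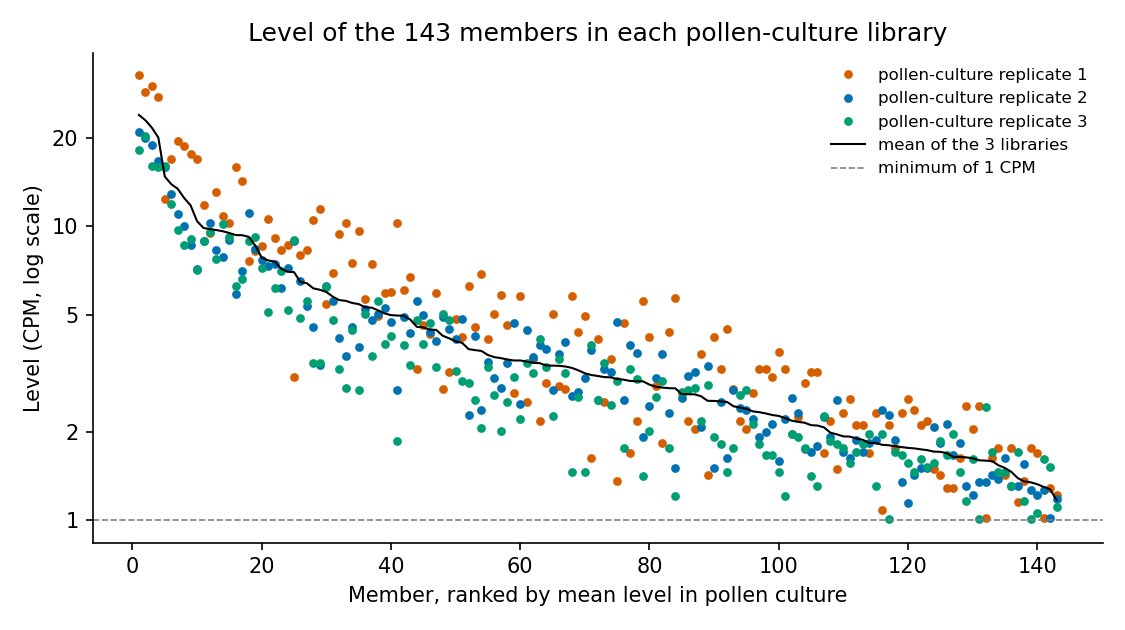
Level of each of the 143 members in CPM (log axis) in pollen-culture replicates 1, 2 and 3 (points) and their mean (line), with members ordered along the horizontal axis by that mean. The means fall from 23.9 to 1.17 CPM, and replicate 1 has the highest point for 9 of the 10 members at the left end.

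The highest member, GSBRNA2T00097432001, stood at 32.6, 20.9 and 18.1 CPM in pollen-culture replicates 1 to 3, from 479, 513 and 359 reads (mean 23.9 CPM ± 7.66, SD, n = 3). It had 0, 1 and 2 reads in heat stress plus TSA replicates 1 to 3. The CPM of the summed reads was 453-fold lower after treatment, with a 95% exact (Clopper-Pearson) interval of 155 to 2200.1. The pollen-culture libraries were thus all far above the treated ones, with replicate 1 above the other two. Reads carry no molecular identifiers, so this and the following intervals and bounds cover counting error only. The bounds for members without a treated read leave out the counting error of the pollen-culture reads.

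The highest member without any read after treatment was GSBRNA2T00041325001, ninth by level. It stood at 17.5, 8.64 and 9.07 CPM in pollen-culture replicates 1 to 3, from 258, 212 and 180 reads (mean 11.7 CPM ± 5.01, SD, n = 3). Replicate 1 was again the highest of the 3. Against the level that 3 reads over the whole treated group would give, 0.0505 CPM, it was at least 233-fold lower after treatment.

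Members that were even across the pollen-culture libraries also occurred. The member ranked 5 by level stood at 12.4, 15.8 and 16.0 CPM and had 1 read in each treated library, a 298-fold difference of summed reads (interval 102 to 1447). Here replicate 1 was the lowest pollen-culture library. The member ranked 12 stood at 9.45, 10.3 and 9.58 CPM, and had 1, 1 and 0 reads in treated replicates 1 to 3. The least even was the member ranked 41, at 10.3, 2.77 and 1.86 CPM and without a read after treatment. Its highest pollen-culture library was 5.50-fold above its lowest, the widest ratio among the members. At the low end, the member ranked 143 stood at 1.22, 1.18 and 1.11 CPM in pollen culture, from 18, 29 and 22 reads. It too had no read after treatment, and the depth showed only that it was at least 23.2-fold lower.

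Below 10 CPM, the spread of the members between pollen-culture libraries was close to that of all identifiers of like level, and it was smaller without replicate 1. The coefficient of variation over the 3 libraries had a median of 27.4% over the members (quartiles 16.4% and 39.8%), and of 23.5% over all 37117 identifiers. Counting error alone is larger at low levels, so the classes were also set side by side. The medians of members and of all identifiers were 20.7% and 23.4% under 2 CPM, 30.0% and 30.0% from 2 to under 5, and 23.7% and 25.4% from 5 to under 10. For the 10 members at 10 CPM or more the median was 32.9%, against 20.3% for all identifiers there. Counting alone would give members about 17.7%, 13.2%, 8.72% and 6.09% in these classes. These are expected SDs divided by the mean, so they are not on quite the same footing as medians over 3 libraries. Without pollen-culture replicate 1 the median coefficient of variation was 11.0%, over the 158 identifiers that the rule then picks. A coefficient over 2 libraries is not on the same footing as one over 3. Without pollen-culture replicate 2 the median was 32.4%, and without replicate 3 it was 25.6%, each also over 2 libraries. The smaller spread was not limited to the members: over replicates 2 and 3 alone, the medians of members and of all identifiers were 12.2% and 14.9%, 13.6% and 14.9%, 7.09% and 12.2%, and 4.68% and 8.37% in the 4 classes. The highest library was at least 2-fold above the lowest in 42 of the 143 members (29.4%), and in 27.3% of all 37117. Replicates 2 and 3 were at least 2-fold apart in 2 members (1.40%), and in 1.94% of all 37117.

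Most members were highest in pollen-culture replicate 1. This held for 90 of the 143 (62.9%), against 42.7% of all 37117 identifiers, while 31 were highest in replicate 2 and 22 in replicate 3. Replicate 3 was the lowest library for 77 members, replicate 1 for 40 and replicate 2 for 26. Replicate 1 was highest in 19 of 36 members under 2 CPM, 39 of 68 from 2 to under 5, 23 of 29 from 5 to under 10 and 9 of 10 at 10 CPM or more. Over all identifiers the share lay between 42.0% and 43.0% in each of these classes. Replicate 1 was at least 2-fold above the mean of replicates 2 and 3 in 26 members (18.2%, against 8.65% of all) and at least 2-fold below it in 5 (3.50%, against 11.1%). With TMM-scaled totals 87 members were highest in replicate 1 (40.9% of all identifiers), and with DESeq2 size factors 90 were (43.8% of all). The rule used these libraries only through their minimum of 1 CPM, and no test was made, since identifiers of 1 library are not replicates. Across the members, Spearman's rho of CPM was 0.933 between replicates 2 and 3 and 0.726 and 0.653 between replicate 1 and these.

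The absence after treatment was complete at this depth for 33 of the 143 members (23.1%), which had no read in any of the 3 treated libraries. A further 28 had 1 read, 46 had 2 and 36 had 3. At their pollen-culture mean, the members would have had 69.6 to 1418 reads over the treated libraries, with a median of 184.0, so depth was enough to see any member at that level. For the 33 without a read the difference was at least 23.2-fold to at least 233-fold, with a median bound of 50.5-fold, against the level of 3 reads over the group. For 5 of them the bound was at least 100-fold. This bound takes the pollen-culture mean as exact, so it is not on the same footing as the intervals that follow. For the 110 with 1 to 3 reads, the ratio of CPM of the summed reads ran from 25.8 to 1317, with a median of 105. The lower limit of its 95% interval was at least 10 for 109 of these and at least 100 for 7. The exception was the member ranked 139, at 1.77, 1.26 and 1.01 CPM in pollen culture with 1 read in each treated library, whose 25.8-fold difference had an interval of 8.51 to 128.

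Levels that members without a read and members with a few reads had in pollen culture were close. The median was 2.55 CPM for those with 0 reads, 3.04 with 1, 3.21 with 2 and 3.34 with 3. Of the 10 members at 10 CPM or more, 1 had no read, and of the 36 under 2 CPM, 11 had none. A low level left in the low members would be missed more often, so their lack of reads says less. The 10 highest members held 9353 pollen-culture reads and 20 reads after treatment, of which 4, 4 and 12 lay in treated replicates 1 to 3.

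**Figure D2:**
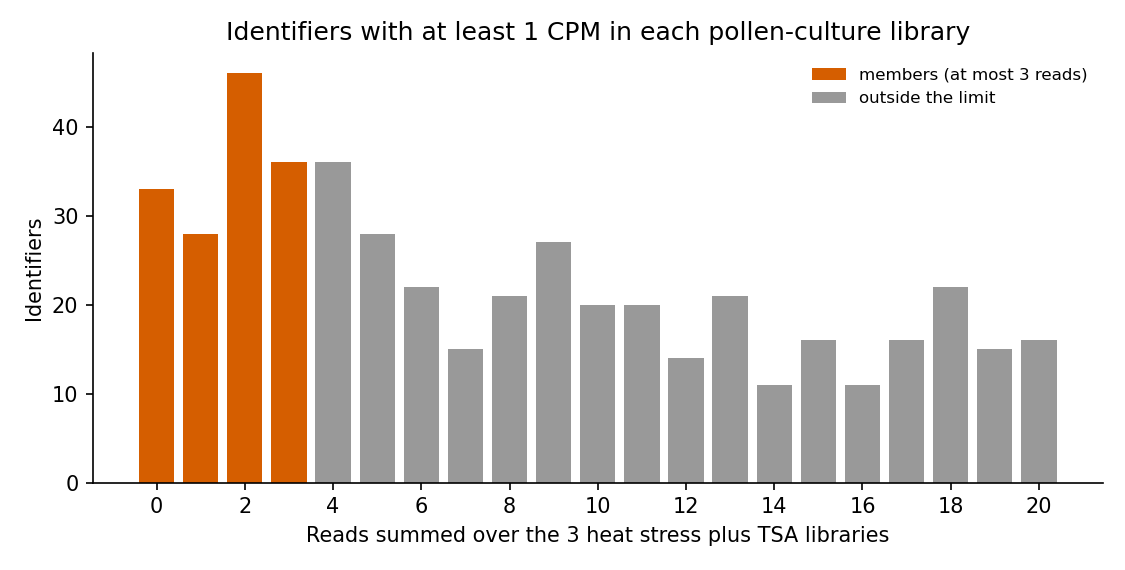
Number of identifiers with at least 1 CPM in each pollen-culture library (vertical axis) by their reads summed over the 3 heat stress plus TSA libraries (horizontal axis, 0 to 20 reads), with the members at 0 to 3 reads in colour. The counts pass from 36 identifiers at 3 reads to 36 at 4, with no gap at the limit.

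The limit of 3 reads did not separate the members from their neighbours. The 37117 identifiers included 36 with 3 reads, 36 with 4 and 28 with 5, and 169 had 4 to 10 reads after treatment. Their median pollen-culture level was 3.34 CPM at 3 reads, 2.81 at 4 and 4.44 at 5. Among those with 4 to 10 reads, 62.7% were highest in pollen-culture replicate 1, close to the 62.9% of the members. At the other limit, the lowest pollen-culture library lay from 1 to under 1.1 CPM in 8 members, and 6 further identifiers with at most 3 treated reads had it from 0.9 to under 1 CPM. The members were thus the low end of a range without a gap.

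The reads that remained lay mostly in heat stress plus TSA replicate 3. The members had 45, 46 and 137 reads in treated replicates 1 to 3, or summed levels of 3.83, 1.86 and 5.98 CPM. This was 0.605% of their summed pollen-culture level in replicate 1 (95% exact interval 0.441% to 0.810%), 0.294% in replicate 2 (0.215% to 0.392%) and 0.945% in replicate 3 (0.793% to 1.12%). Over the group it was 0.607% (0.530% to 0.691%), from 228 reads against 37359 in pollen culture, and the mean over the 3 libraries was 0.615% ± 0.326 (SD, n = 3). Replicate 2, the deepest treated library, had the lowest level left, and replicate 3 the highest. The rule limits these reads to 3 per member and the intervals cover counting error only, so this order is a description of the 3 libraries. In treated replicate 3, 84 members had a read, compared with 35 in replicate 1 and 42 in replicate 2. Of the 63 members with reads in a single treated library, 45 had them in replicate 3 and 9 in each of the other two. Reads were seen in all 3 treated libraries for 4 members. No member exceeded 0.255 CPM in any treated library, which the rule ensures, since 3 reads in the smallest treated library give 0.255 CPM. The 169 identifiers just outside the limit showed the same order, with 1.24%, 0.765% and 2.44% of their pollen-culture level left in treated replicates 1 to 3. They were chosen by their reads in these same 3 libraries, so the shared order is no separate support. Without heat stress plus TSA replicate 3, and with the limit lowered to 2 reads over 2 libraries, the rule picked 301 identifiers, of which 140 were members and 125 had no read.

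In edgeR's quasi-likelihood test across the whole table, all 143 members were called lower after heat stress plus TSA, at Benjamini-Hochberg adjusted p-values of 0.000798 to 0.0194 and fitted log2 fold changes of -10.91 to -4.64. Of the 49871 identifiers tested, 2.42% were called lower. Because the same contrast chose the members, this count shows only that the rule and the test overlap.

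The rule was also applied to 2 replicate numbers of both groups and read out in the third pair. The limit was then at most 2 reads over the 2 treated libraries used. The pair left out took no part in that choice. The rule itself was set with earlier results of these data known, so the pair is a description and not an independent check. Without replicate 1 the rule picked 150 identifiers. In the treated library left out, 96 of these (64.0%) had no read and 125 (83.3%) had at most 1. The shares were 1.19% and 1.94% over all 39373 identifiers with at least 1 CPM in the same 2 pollen-culture libraries. In the pollen-culture library left out, 136 of the 150 (90.7%) reached 1 CPM, and the median of the 150 was 3.06 CPM. Over all 39373 identifiers these values were 94.3% and 8.63 CPM. Most identifiers picked without replicate 1 were thus near-absent in the treated library that had not been used. Presence in the unused pollen-culture library was no more frequent among them than over all identifiers, whose median level there was higher (8.63 against 3.06 CPM). The shares in the treated and the pollen-culture library were not matched for level.

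Without replicate 2 the rule picked 143 identifiers, of which 123 were members by the full rule. In the treated library left out, 82 (57.3%) had no read and 122 (85.3%) had at most 1, against 0.534% and 0.919% over all 38210 identifiers. Of the 143, 2 had over 10 reads, the highest being 49, and 2 reached 1 CPM. A read stands for a higher level in treated replicate 1, with 11758677 counts, than in replicate 2, with 24773444, so the shares of the 2 libraries are not at equal levels.

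The result differed for replicate 3. Without it the rule picked 316 identifiers, of which 140 were members. In treated replicate 3, 63 of these (19.9%) had no read and 107 (33.9%) had at most 1, against 0.190% and 0.377% over all 37393 identifiers. A total of 64 had over 10 reads, the highest being 36, and 14 reached 1 CPM. Identifiers absent from treated replicates 1 and 2 were thus often detected at a low level in replicate 3.

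The summed level in the pairs left out was low, but single identifiers kept more. The highest ratio of treated to pollen-culture CPM among the picked identifiers was 41.7%, 72.7% and 66.0% for replicates 1 to 3. The summed level in the left-out treated library was 1.03% of that in the left-out pollen-culture library for replicate 1 (95% exact interval 0.831% to 1.26%), 1.33% for replicate 2 (1.15% to 1.53%) and 4.30% for replicate 3 (4.10% to 4.50%). The CPM of the treated library was at least 10-fold lower in 141 of 150 identifiers (94.0%), 139 of 143 (97.2%) and 253 of 316 (80.1%). Over all identifiers with a read in the left-out pollen-culture library, the shares were 3.15%, 2.09% and 1.47%. The pollen-culture library was above the treated one in all 150, all 143 and all 316 identifiers. This held for 39.7%, 44.6% and 63.7% of all identifiers with at least 1 CPM in the other 2 pollen-culture libraries. With 1 library of each group in a pair, the values of a pair were not tested.

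**Figure D3:**
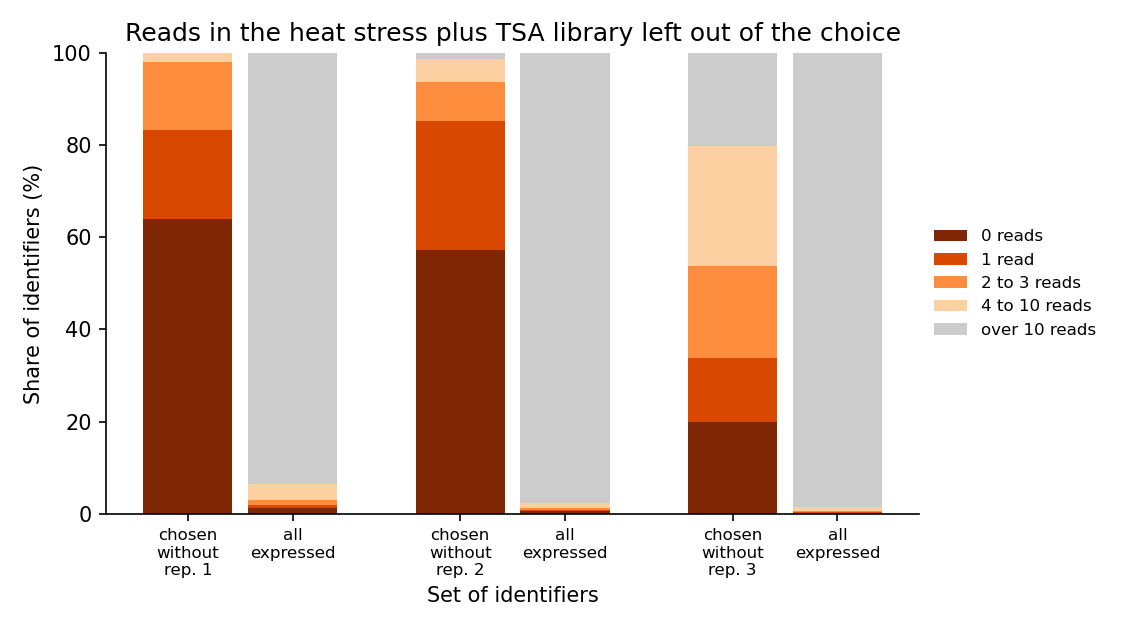
Share of identifiers (vertical axis, %) by their number of reads in the heat stress plus TSA library that was left out of the choice, for identifiers chosen without replicate 1, 2 or 3 and, beside each, for all identifiers with at least 1 CPM in the same 2 pollen-culture libraries. No read was found for 64.0%, 57.3% and 19.9% of the chosen identifiers and for 1.19%, 0.534% and 0.190% of all.

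**Figure D4:**
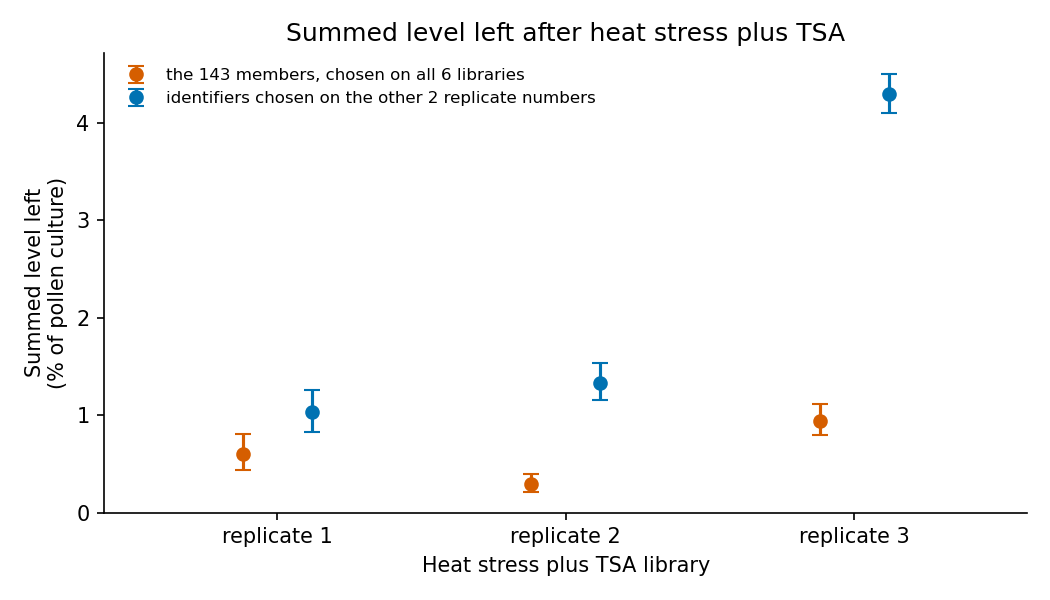
Summed level left in each heat stress plus TSA library, in percent of pollen culture (vertical axis from 0), for the 143 members against the pooled pollen-culture libraries and for identifiers chosen on the other replicate numbers against the pollen-culture library of the same number. Bars are 95% exact counting intervals; replicate 3 is highest in both sets, at 0.945% and 4.30%.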

How the data were processed

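The authors deposited whole-number read counts per gene identifier, 1 column per library, without normalization. The submitters' processing notes name TopHat2, which aligns spliced reads, and HTSeq, which counts them, and give no versions. Not given in the sources used here are the genome build, annotation release, strand setting and handling of reads with several matches. Columns were matched to samples by their descriptions, and groups come from the titles.

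CPM used column totals. Members and lists were chosen with earlier results of these data known. The 2 identifiers named are the highest member and the highest without a treated read, and the others are given by rank. The marker lists could not be matched, since 0 of 101040 identifiers were among the 123214 genes of the RefSeq table for the Da-Ae assembly.

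The counts of all 49871 identifiers that passed filterByExpr (minimum count 10) were tested with edgeR 4.0.16 in R 4.3.3 (TMM scaling, quasi-likelihood F test, group alone, Benjamini-Hochberg, threshold 0.05), and with DESeq2 1.42.0 as an alternative. All 143 members passed the filter, which their own pollen-culture minimum ensures. Intervals are exact (Clopper-Pearson, scipy 1.17.1), and bounds use 3 reads per group and take the pollen-culture mean as exact. No pair of libraries was a repeat within sampling noise (chi-square per degree of freedom at least 10.2). Alternatives changed the scaling, both limits, depth, the filter, the tool and the libraries used.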

Additional observations from a re-analysis of the deposited data

How the results depend on the processing

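The rule picked 142 identifiers with DESeq2 size factors and the same 143 with TMM-scaled totals. It picked 80 with a minimum of 2 CPM, 33 with no treated read allowed and 312 with up to 10, and these changes follow from the limits. Those without a treated read were 55 of 207 picked at a minimum of 0.5 CPM, 13 of 80 at 2 CPM, and 57 of 211 with every library thinned to the smallest total, of which 136 were among the 143. The median pollen-culture level was 2.16 CPM and 4.97 CPM at these 2 minima, 2.55 CPM with no treated read, 3.66 CPM with up to 10, 3.46 CPM after thinning, and 2.57 CPM with replicates 2 and 3 alone, where the median coefficient of variation was 11.3%. The pooled level left was 0% with no treated read, by construction, and 1.20% with up to 10. Leaving out 1 library at a time gave 136 to 301 identifiers, 34 to 125 without a read, median levels of 2.57 to 4.19 CPM, 0.336% to 0.695% of the level left, and coefficients of variation of 11.0% to 32.4%. Leaving out replicate 3 of heat stress plus TSA gave the highest counts, and leaving out pollen-culture replicate 1 the lowest coefficient. Of the 143 members, edgeR called 118 without pollen-culture replicate 2, 137 to 143 without any other library, and 143 under each other setting, DESeq2 included. Over all identifiers tested, 450 of 52341 were called lower without pollen-culture replicate 2. With replicates 2 and 3 alone, 2303 of 51653 were, and the counts of the other settings lay between these. The rule used the same contrast, so the member counts show only that the rule and the fits overlap. The fit with the replicate block called all 143. Same-numbered deviations correlated at 0.50, 0.42 and 0.02, and 3 of 6 libraries had their highest correlation with the same number. Whether libraries of the same number share more than a label was not tested. The count of members highest in pollen-culture replicate 1 was recomputed with other scalings only after seeing the data. Depth limits the absence: 3 reads over the treated group correspond to 0.0505 CPM.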

Other observations

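Pollen-culture transcripts absent after treatment were fewer than transcripts with the reverse pattern. At least 1 CPM in each treated library with at most 3 reads in the sum of the pollen-culture libraries was found for 452 identifiers, 1.15% of the 39387 that reached 1 CPM in each treated library, against 143 and 0.385% for the members. The median level of the 452 after treatment was 4.53 CPM. The difference between these counts was not tested. Without heat stress plus TSA replicate 3 the counts were 483 and 301. They were 834 and 136 when treated replicate 1 was left out, with the limit lowered to 2 reads where the near-absent group had 2 libraries. Without any other single library the reverse pattern had 466 to 529 identifiers and the members' rule 140 to 158. Leaving out libraries for the reverse pattern was chosen after seeing the data. Of all 36290 identifiers with at most 3 reads after treatment, 10610 had at least 1 read in pollen culture, and the members were 0.394% of the 36290.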
